A study of Mus musculus with 48 samples.

Results

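The genes described here are 39 members of the type I interferon response, given as a list of symbols with no cut on values. The list was chosen with earlier results of these data known, so counts of members set against all genes describe it and are no independent test. Each was read by its probe set with 1 gene symbol and the highest mean over all 48 arrays. Such a probe set existed for 37 members of 18193 genes in all. The probe set of Isg15, the ubiquitin-like protein of the response, maps to several symbols, and Ifi44 had no probe set with a single symbol, so both were not analysed here. Oas3 did not exceed 2.21 on any of the 48 arrays, next to the lowest value of the table (2.20), and was not tested, which left 36 members among 13163 tested genes.

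The study compared whole-kidney RNA of 2 mouse strains, FVB and C57BL/6 (B6), that differ in their propensity to chronic kidney disease after removal of most of the kidney mass. Mice underwent subtotal nephrectomy (Nx) or a sham operation at 9 weeks of age, and kidneys were taken on day 2, 28 or 53. The 12 groups of strain, surgery and day held 4 mice each, with 1 Affymetrix array per mouse. No allele or drug is named in the labels for any group, and each animal is called here by the mouse number of its label. Values are on the log2 scale, so a difference of 1 is a doubling of signal, and a probe set's level is never set against that of another.

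Type I interferons signal through a receptor made of Ifnar1 and Ifnar2, which activates the kinases Jak1 and Tyk2. A complex that contains Stat2 and Irf9 then binds a promoter element called the interferon-stimulated response element (ISRE) and switches on many antiviral genes. Irf7, itself induced, amplifies interferon production, and Usp18 and Socs proteins dampen the signal. In the kidney the response is known from viral nephropathy and lupus nephritis, and interferon gamma drives an overlapping set of genes, Irf1 among them.

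Promoter sequences of 29 of the 39 members were matched by symbol in a RefSeq table of build GRCm38.p6, each 300 bases long (250 before to 50 after the start). The ISRE core, GAAA, any 2 bases and GAAA again (on the opposite strand TTTC, any 2 bases and TTTC), occurred on either strand in 13 of these 29 members and in 1079 of 27025 genes in the table, which is 3.99%. The gamma-activated site TTCNNNGAA, which reads the same on both strands, occurred in 6 of 29 members and in 9.55% of genes. Windows are shown for members whose values carry the results below: Stat2, Ifit1, Ifit3 and Trim30a with a strain difference, Gbp2 with 2 high FVB sham animals, and Gbp3 and Rsad2 with effects of opposite sign between groups. Capitals mark the ISRE core and every sequence runs 5′ to 3′ on the gene's strand.
Stat2, chr10:128270261-128270300, plus strand: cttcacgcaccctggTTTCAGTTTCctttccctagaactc
Ifit1, chr19:34640770-34640828, plus strand: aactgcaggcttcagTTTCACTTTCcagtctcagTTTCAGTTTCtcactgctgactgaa
Ifit3, chr19:34583358-34583431, plus strand: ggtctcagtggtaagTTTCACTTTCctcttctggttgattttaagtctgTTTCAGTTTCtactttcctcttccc
Gbp2, chr3:142620589-142620628, plus strand: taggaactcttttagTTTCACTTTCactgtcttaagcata
Gbp3, chr3:142559984-142560029, plus strand: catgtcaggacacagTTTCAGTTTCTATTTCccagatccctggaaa
Rsad2, chr12:26456548-26456587, minus strand: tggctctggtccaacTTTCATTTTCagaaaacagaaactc
Trim30a, chr7:104465205-104465244, minus strand: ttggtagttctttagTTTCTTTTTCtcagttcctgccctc
Ifit1 and Ifit3 each hold a pair of separate cores, and the 2 cores of Gbp3 overlap. The cores lie between 222 bases (Stat2) and 36 bases (Trim30a) before the start. The matches of Ddx58, Ifih1 and Eif2ak2 lie at or after the start and are not shown. A match is a description of these letters and not a measured binding site.

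Several arrays stood apart. The mean of 19 pancreatic acinar transcripts was above 5 on 16 of 24 Nx and 2 of 24 sham arrays, and at day 2 it was 2.87 in FVB Nx mouse 1 but 9.60, 13.8 and 14.6 in mice 2, 4 and 5. FVB Nx day 2 mouse 2 also read 7.84 for Mpo, 10.7 for Camp, 10.2 for Ngp and 5.74 for Ms4a1, genes of granulocyte precursors and B cells, where the other 3 mice of the group read no more than 2.22. FVB sham mice 2 and 4 at day 2 were high in genes that interferon gamma is known to induce, and B6 Nx day 28 mouse 3 was high in macrophage markers (9.31, against 6.99 to 7.30). Shifting every array to a common median lowered the median difference of all genes at FVB day 2 from -0.03 to -0.20 and moved the calls from 3271 higher and 3947 lower to 2310 and 6561. The same shift moved them from 2654 and 3221 to 2003 and 5158 in B6 at day 2 and from 3411 and 3663 to 2476 and 6016 in FVB at day 53. The mean of 9 kidney epithelial markers, the labelled tissue, was 10.7 to 12.3 on every array. All 9 such markers passed as lower in FVB Nx at day 2, and in whole-kidney RNA fewer cells of a type and less RNA per cell cannot be told apart.

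At 2 days after nephrectomy nearly all interferon response genes were higher in FVB kidneys. In limma's fit, 35 of 36 tested members passed as higher than sham at an adjusted p under 0.05, against 24.8% of all genes tested, and none passed as lower, at an unadjusted p under 0.05 either, against 30.0%. The median difference was 1.99 on the log2 scale over the members and -0.03 over all genes. The 4 Nx values lay above all 4 sham values for 31 members, against 20.2% of all genes. Samd9l, a growth-restraining antiviral factor, was the member that did not pass (difference -0.01, SE 0.12). Without the array of mouse 2, 34 members passed, and 28 passed when the arrays with pancreatic transcripts were left out, which left mouse 1 as the only FVB Nx array of that day, assumed to vary like the other groups.

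**Figure D1:**
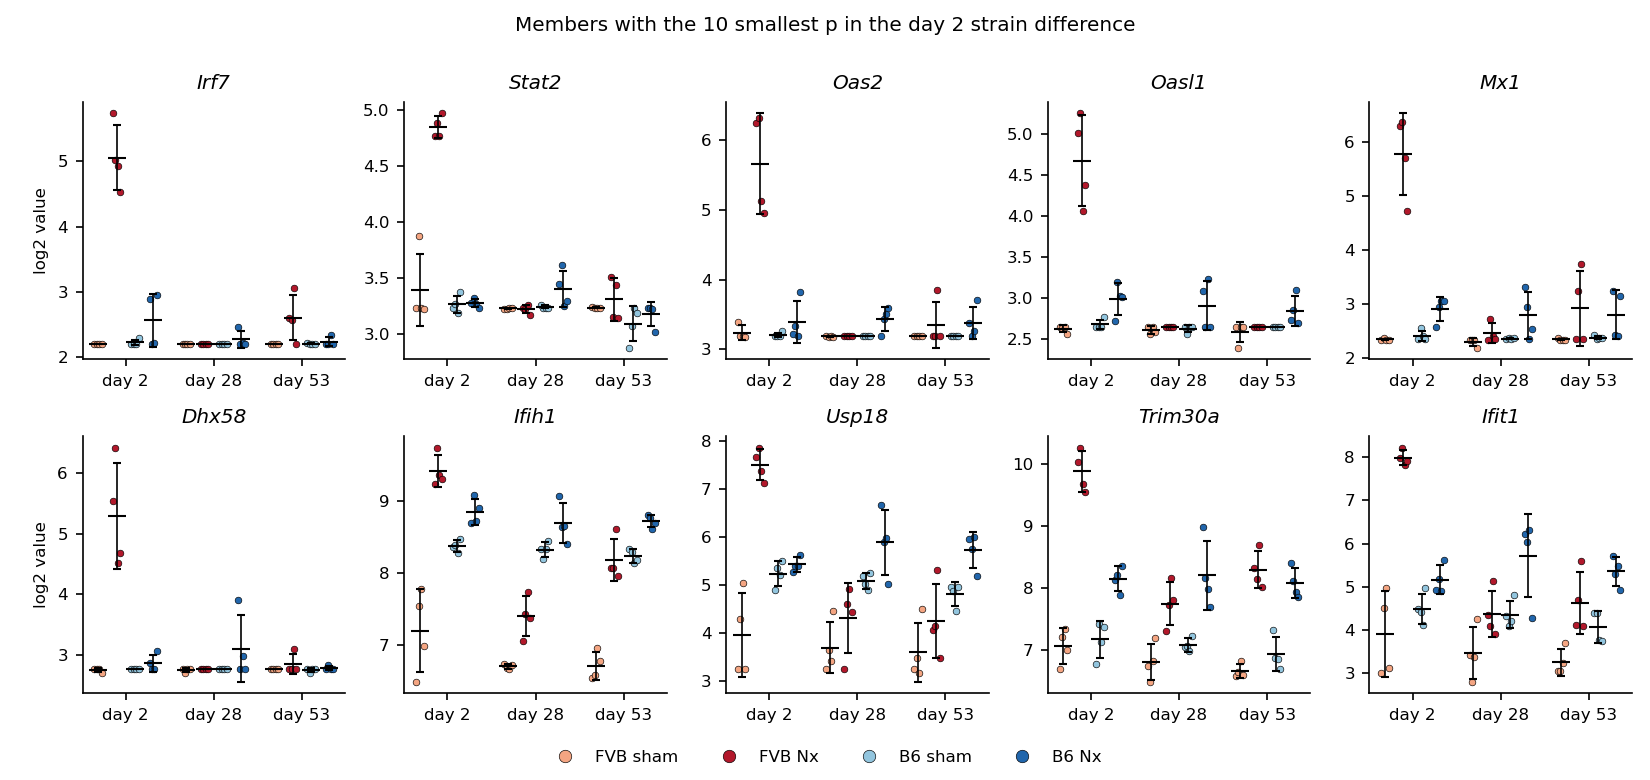
Log2 values of the 10 members with the smallest p in the day 2 strain difference. Each point is 1 animal, the horizontal bar is the group mean and the whisker 1 SD (n = 4). FVB Nx animals at day 2 lie above every other animal for Irf7, Stat2, Oas2, Oasl1, Mx1, Dhx58, Ifih1, Usp18, Trim30a and Ifit1.

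The transcription factors of the response were all higher in FVB Nx kidneys at day 2, 4 of 4. Irf7, which amplifies interferon production, read 5.73, 5.02, 4.92 and 4.53 in Nx mice 1, 2, 4 and 5. It read 2.21, 2.20, 2.21 and 2.20 in the sham mice, all under the filter value of 2.28. The rise was thus at least 6.84-fold against that value (limma adjusted p = 1.29e-17), the third smallest p of all genes tested. Irf7 lay within 0.1 of 2.21 on 37 of 48 arrays, so an SE taken over all groups, and its p, may be too small. Stat2, the partner of Irf9, read 4.77, 4.88, 4.76 and 4.97 in Nx mice. Its sham values were 3.23, 3.87, 3.24 and 3.23, so mouse 2 stood apart from the other sham animals but below every Nx animal. Stat2 rose 2.74-fold (log2 1.45, SE 0.10), from a resting level within 0.1 of 3.24 on 35 of 48 arrays, so the fold may be understated. Irf9 rose by 1.34 (SE 0.30) and Irf1, a factor that interferon gamma also induces, by 1.35 (SE 0.29), with Nx and sham values of Irf1 overlapping.

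The brake Usp18, a protease that removes Isg15 and blocks the interferon receptor, read 7.67, 7.86, 7.37 and 7.12 in FVB Nx mice. It read 3.26, 4.29, 5.04 and 3.24 in sham mice 1, 2, 4 and 5 with mouse 4 the highest and still below every Nx mouse. The difference was 3.55 (SE 0.37), or 11.7-fold. Herc6, the ligase that attaches Isg15 in mice, was 4.78-fold higher.

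Sensors of viral RNA and DNA rose together, 4 of 4. Dhx58 (the sensor LGP2) read 5.54, 6.42, 4.51 and 4.68 in FVB Nx mice and 2.76, 2.76, 2.76 and 2.70 in sham mice. Its values lay within 0.1 of 2.76 on 40 of 48 arrays, a resting level from which a fold change may be understated. Ifih1 (MDA5) read 9.23, 9.73, 9.35 and 9.30 after Nx, against 6.50, 7.54, 7.78 and 6.99 in sham. The Nx animals of Ifih1 lay close together and the sham animals further apart. Zbp1, a sensor of left-handed nucleic acid that can trigger cell death, read 6.83, 7.88, 6.90 and 5.98 against 2.96, 3.13, 4.35 and 2.96. That was 11.7-fold (log2 3.55, SE 0.33). Ddx58 (RIG-I) was 2.39-fold higher.

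Effectors that act on RNA held the 2 largest differences of any member, and 8 of 8 were higher. Oasl2, of the oligoadenylate synthetase-like family, read 8.09, 8.76, 8.05 and 8.07 in FVB Nx mice and 2.50, 4.59, 4.87 and 3.87 in sham mice. It rose 19.5-fold (log2 4.29, SE 0.40, limma adjusted p = 1.31e-11). Ifit1, which binds foreign RNA caps, read 7.98, 8.23, 7.83 and 7.92 against 3.00, 4.51, 4.97 and 3.11, a 17.0-fold rise. The 4 Nx animals of Ifit1 lay close together while the sham animals split into a low and a high pair. Oas2 read 6.25, 6.32, 5.12 and 4.96 against 3.40, 3.19, 3.19 and 3.18, and Oasl1 5.01, 5.25, 4.06 and 4.38 against 2.65, 2.64, 2.65 and 2.56. In both genes Nx mice 1 and 2 lay clearly above mice 4 and 5. Ifit2 rose by 2.08, Ifit3 by 1.93, Isg20, an RNA-degrading enzyme, by 1.79 and Eif2ak2 (the kinase PKR) by 1.41.

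Among 7 membrane and GTPase effectors, all passed as higher, but by unequal amounts. Mx1, a GTPase that traps viral particles, read 6.30, 6.38, 5.71 and 4.73 in FVB Nx mice and 2.34, 2.37, 2.34 and 2.34 in sham mice, 10.8-fold from a resting level that may understate it too. Mx2 lay at the lowest value in all 4 sham mice and was at least 1.52-fold higher. Mx2 met the minimum of 4 arrays above the filter value only through the FVB Nx mice of day 2, so its call as higher supports nothing. Without Mx2 the count at FVB day 2 was 34 of 35. Gbp2, a guanylate-binding protein that interferon gamma also drives, read 11.17, 13.38, 12.72 and 12.40 after Nx. Its sham values were 8.58, 10.55, 11.22 and 8.93, so sham mouse 4 overlapped Nx mouse 1. The rise of Gbp2 was 2.60 (SE 0.37). Bst2, which tethers budding virus, rose by 1.21 and Gbp3 by 0.81, both with overlapping groups. Cmpk2 and its genomic neighbour Rsad2 (viperin) rose by 0.80 and 0.67, with no overlap.

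The 4 members of the ADP-ribosylation group, Parp9, its partner Dtx3l, Parp12 and Parp14, rose by 1.42, 1.59, 1.27 and 2.12. Of the 7 remaining members 6 were higher. Rtp4, which restrains the interferon response in some cells, read 10.71, 11.08, 10.52 and 10.53 in FVB Nx mice and 6.98, 8.12, 8.74 and 7.09 in sham mice, a 7.87-fold rise. Trim30a read 10.04, 10.27, 9.68 and 9.55 against 6.68, 7.21, 7.34 and 6.99, 7.11-fold. Ifi27l2a rose by 2.60, Xaf1 by 2.46, Lgals3bp by 1.57 and Ifi35 by 1.26.

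The order of the animals was shared by many members. In FVB Nx at day 2, mouse 2 was the highest of 4 for 25 of the 36 tested members, and none had its lowest value there. In FVB sham at day 2, mouse 4 was the highest for 25 members, and mice 1 and 5 were the lowest for 19 and 15. The mean over the 37 measured members was 5.91, 6.57, 6.90 and 6.06 in sham mice 1, 2, 4 and 5 and 8.27, 8.72, 8.23 and 8.08 in Nx mice 1, 2, 4 and 5. Nx mouse 1, with no pancreatic signal, was thus the second highest of its group. The mean of 17 genes known chiefly for induction by interferon gamma was 6.83, 8.31, 9.09 and 7.14 in the same sham mice and 8.18, 9.58, 9.14 and 8.90 in the Nx mice, so this mean overlapped between surgeries where that of the members did not. The part of the gamma-type genes in the members' values was not tested.

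**Figure D2:**
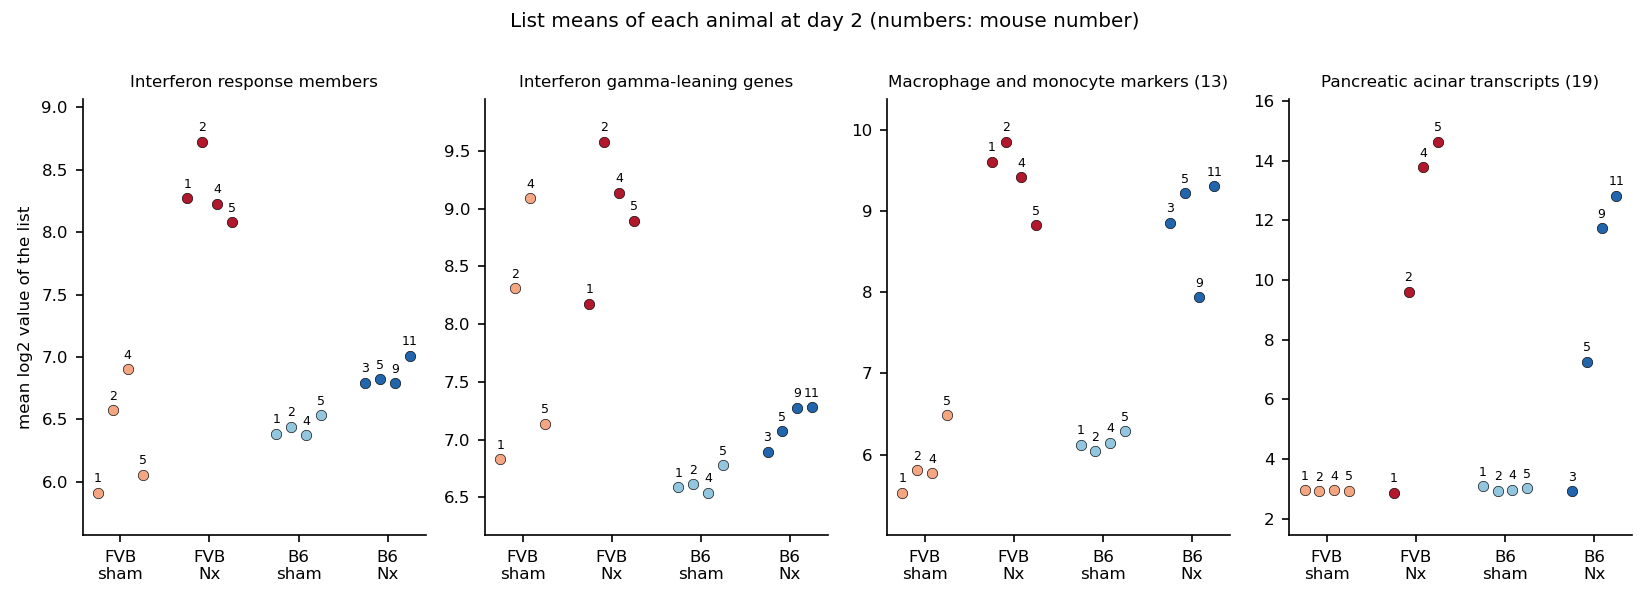
Mean log2 value over each list in every animal at day 2, with the mouse number beside the point. The 4 FVB Nx animals (8.08 to 8.72) lie above the other 12 for the interferon response members, FVB sham mice 2 and 4 reach 8.31 and 9.09 for the gamma-leaning genes, and macrophage markers overlap between FVB Nx and B6 Nx.

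In B6 kidneys fewer members passed at day 2, and some fell. Of 36 members 16 passed as higher, against 20.2% of all genes, and 3 as lower, against 24.5%, with a median difference of 0.49. All 16 were also among the 35 of FVB. The 4 ADP-ribosylation genes passed as higher in B6 too (0.36 to 0.89), as did the sensors Ddx58, Ifih1 and Zbp1, the effectors Oasl2 (1.80, SE 0.40), Isg20 (1.29) and Eif2ak2 (0.99), Gbp2, and Trim30a, Lgals3bp, Ifi35, Xaf1 and Rtp4. None of the 4 transcription factors passed, with Stat2 at 0.01 (SE 0.10) and Irf7 at 0.34 (SE 0.15). Gbp3 (-0.84), Samd9l (-0.56) and Cmpk2 (-0.45) fell. The 4 Nx values lay above the 4 sham values for 18 members, against 18.2% of all genes. The 16 higher members became 10 without Nx mouse 11, 9 after shifting each array to a common median and 5 without the arrays with pancreatic transcripts.

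The effect of nephrectomy at day 2 was larger in FVB than in B6 for all 36 members, and the difference of the effects passed for 24 of them (23 of 35 without Mx2), against 2.27% of all genes. None passed as smaller, at an unadjusted p under 0.05 either, against 2.14%. The median difference of effects was 1.69 over the members and -0.01 over all genes. Among the 20 genes with the smallest p in this comparison 6 were members, and 14 among the 100 smallest. The members with the smallest p were Irf7, Stat2, Oas2, Oasl1, Mx1 and Dhx58. Each lay within 0.1 of a resting value on 30 (Mx1) to 40 (Dhx58) of 48 arrays. The fit shares the spread of a gene over the 12 groups, so the SE and p of these members may be too small. Dhx58 had an SD of 0.88 in FVB Nx at day 2 and 0.03 in FVB sham. Leaving out any 1 array gave between 22 and 29 members, and fitting only the arrays compared gave 17. The stricter filter also gave 17, with Irf7, Stat2, Oas2, Oasl1, Mx1, Mx2 and Dhx58 out of the test. Leaving out the arrays with pancreatic transcripts, which left 1 Nx array per strain at that day, gave 13.

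**Figure D3:**
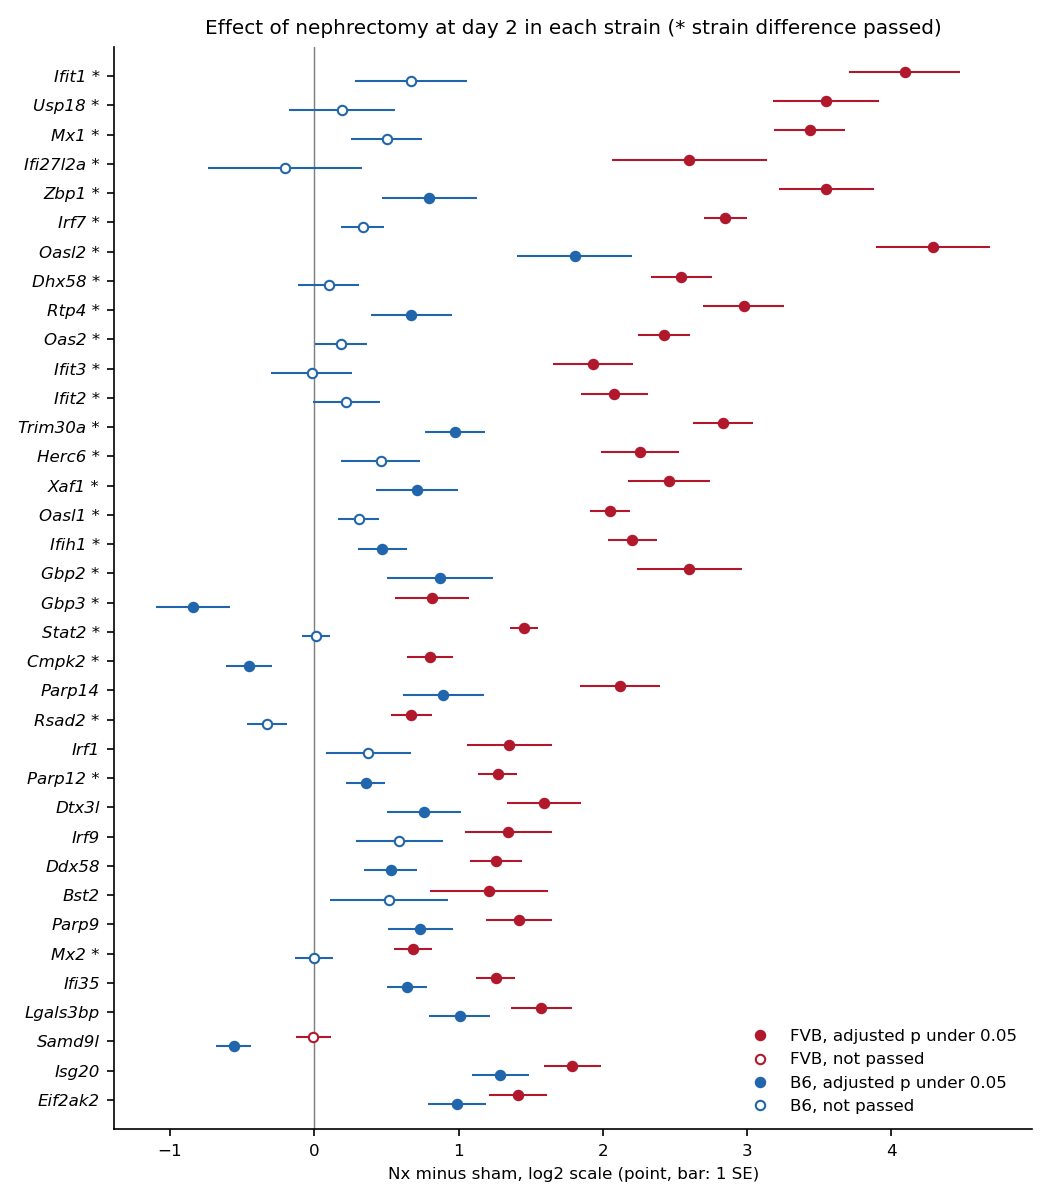
Nx minus sham at day 2 for the 36 tested members, sorted by the difference between strains. Points are log2 differences with bars of 1 SE from the fit, filled where limma's adjusted p was under 0.05, and a star marks the 24 members whose strain difference passed. Every FVB point lies to the right of its B6 point.

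Of the 10 members with the smallest p, all but Mx1, Trim30a and Ifih1 had B6 groups at day 2 that overlapped or shared a value. Irf7 read 2.89, 2.21, 2.21 and 2.95 in B6 Nx mice 3, 5, 9 and 11 and 2.21, 2.21, 2.21 and 2.29 in B6 sham mice 1, 2, 4 and 5 (fitted difference of effects 2.51, SE 0.21, limma adjusted p = 7.60e-11, of which the sham part lies near or under the filter value, so that it is no bound). Only mice 3 and 11 of the B6 Nx group thus lay above the sham range. Stat2 read 3.27, 3.32, 3.27 and 3.24 against 3.24, 3.27, 3.18 and 3.37, and the difference of effects was 1.44 (SE 0.14). Oas2 read 3.22, 3.33, 3.19 and 3.83 against 3.19, 3.19, 3.19 and 3.26, and the difference of effects was 2.23 (SE 0.25).

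Oasl1 read 2.72, 3.19, 3.02 and 3.02 in B6 Nx mice against 2.65, 2.65, 2.65 and 2.77 in B6 sham (difference of effects 1.74). Mx1 read 2.59, 2.96, 3.07 and 3.05 against 2.35, 2.55, 2.41 and 2.35 (2.93, SE 0.35). Dhx58 read 2.86, 2.76, 2.77 and 3.06 against 2.76 in all 4 (2.44). All 4 B6 Nx values of Mx1 lay above the sham values, yet its B6 effect of 0.50 did not pass. Trim30a, a regulator of innate signalling, read 8.13, 8.21, 7.88 and 8.36 against 6.76, 7.42, 7.12 and 7.37 (1.85). Its B6 groups did not overlap, and Trim30a and Ifih1 passed as higher in B6 too.

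Over the sham animals of all days, Ifih1, Usp18 and Ifit1 passed as lower in FVB than in B6. At day 2 the sham groups of the strains overlapped for Usp18 and Ifit1 and not for Ifih1. Ifih1 read 8.68, 9.07, 8.71 and 8.90 in B6 Nx mice and 8.36, 8.38, 8.28 and 8.47 in B6 sham mice, against 6.50 to 7.78 in FVB sham mice. The B6 sham animals were thus above all FVB sham animals, and FVB Nx animals (9.23 to 9.73) above all B6 animals. Usp18 read 5.28, 5.40, 5.40 and 5.63 against 4.88, 5.35, 5.21 and 5.49 in B6, with a difference of effects of 3.36 (SE 0.52), or 10.2-fold. Ifit1 read 4.93, 5.18, 4.91 and 5.62 against 4.48, 4.41, 4.12 and 4.96, with a difference of effects of 3.42 (SE 0.54), or 10.7-fold. For Usp18 and Ifit1 too the FVB Nx values lay above every B6 value of day 2.

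Apart from Mx2, which lay at the lowest value in B6 and in FVB sham, the other 13 members that passed differed by 0.91 (Parp12) to 2.80 (Ifi27l2a). Zbp1 read 3.94, 3.68, 3.94 and 4.08 in B6 Nx mice and 3.19, 3.13, 2.63 and 3.50 in B6 sham mice, for a difference of effects of 2.75. Rtp4 read 8.72, 8.85, 8.81 and 9.23 against 7.95, 8.22, 8.16 and 8.60 (2.30), and Oasl2 6.16, 6.94, 6.26 and 6.69 against 3.66, 4.87, 4.58 and 5.71 (2.48). The effects had opposite signs and both passed for Gbp3 (0.81 in FVB, -0.84 in B6) and for Cmpk2 (0.80 and -0.45). The 12 members that did not pass included Eif2ak2 (0.42, SE 0.28), Isg20 (0.50, SE 0.28), Lgals3bp (0.57, SE 0.30), Irf9 (0.76, SE 0.42) and Bst2 (0.69, SE 0.58). Of the 4 ADP-ribosylation genes Parp12 alone passed (0.91, SE 0.19). A p that missed the threshold does not show that these effects were alike.

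Sham kidneys, taken on day 2, 28 or 53 after a sham operation, also differed by strain. The members' mean at these days was 6.36, 5.89 and 5.88 in FVB sham and 6.43, 6.31 and 6.22 in B6 sham. Over the sham animals of all days, 14 of 36 members passed as lower in FVB than in B6, against 15.6% of all genes, and 1 as higher, Irf1 at 0.44 (SE 0.17), against 16.9%. Ifih1 was lowest relative to B6, at -1.43 (SE 0.10, limma adjusted p = 1.84e-15), followed by Usp18 at -1.30, Oasl2 at -0.99 and Ifit3 at -0.98. Samd9l read 10.92, 10.95, 10.76 and 10.99 in FVB sham mice of day 2 and 11.52, 11.59, 11.68 and 11.57 in B6 sham mice, without overlap (-0.80 over all days). Rsad2 differed by -0.71, Cmpk2 by -0.67, Ifit1 by -0.77 and Ifi27l2a by -0.86. Of these 14 members 11 were also among the 24 with the larger FVB effect at day 2, and both comparisons use the same sham animals. The call on Irf1 was lost without any 1 of 14 of the 24 sham arrays, FVB day 2 mice 2 and 4 among them. The 14 calls as lower were not recomputed under any alternative.

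By day 28 the Nx effect in FVB kidneys was lower for every tested member. Of 36 members 11 passed as higher, against 7.35% of all genes, with a median of 0.34, and none as lower, against 8.82%, with 1 at an unadjusted p under 0.05. The change of the Nx effect from day 2 to day 28 was negative for all 36 members and passed as lower for 28, against 12.5% of all genes (16 without the arrays with pancreatic transcripts). Irf7 read 2.21 in all 4 FVB Nx mice of day 28, Oas2 3.19, Oasl1 2.65 and Dhx58 2.76, their resting levels. This change was -3.28 for Mx1, -3.28 for Zbp1, -3.19 for Ifit1 and -2.93 for Usp18. The 11 members still higher were Trim30a (0.95, SE 0.21), Ifih1 (0.70), Lgals3bp (0.83), Rtp4 (1.00), Dtx3l (0.91), Oasl2 (1.37), Parp14 (0.94), Ifi27l2a (1.79), Isg20 (0.58), Gbp2 (1.04) and Xaf1 (0.81). This count fell to 4 without Nx mouse 7, to 6 and 7 without sham mice 1 and 2, and to 0 without the arrays with pancreatic transcripts.

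**Figure D4:**
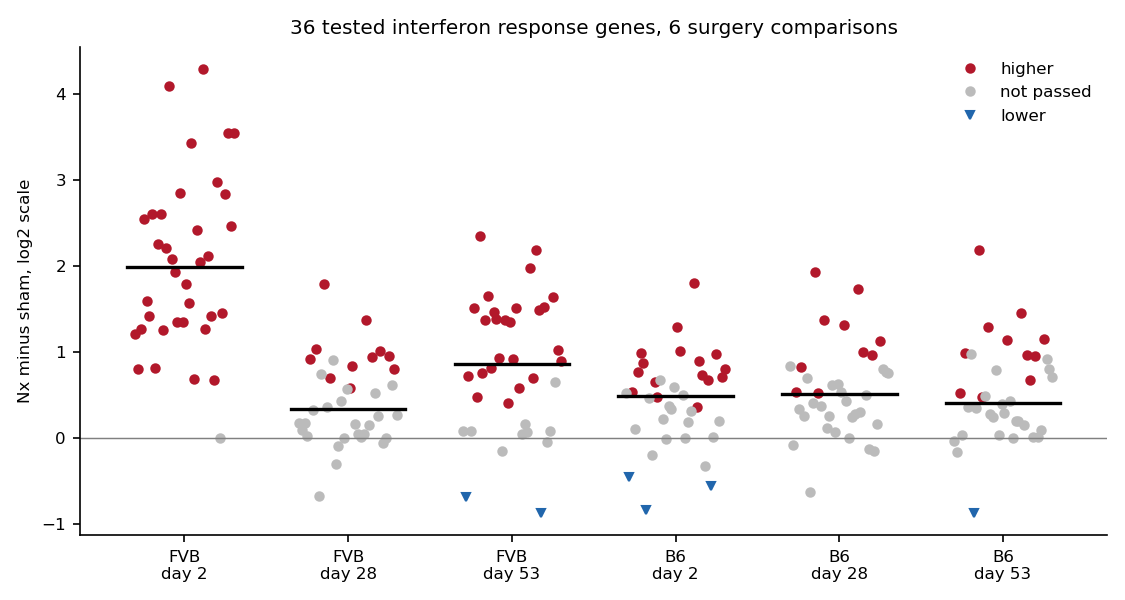
Nx minus sham on the log2 scale for the 36 tested members in the 6 surgery comparisons. Each point is a member, coloured by limma's call at an adjusted p of 0.05, and the bar is the median (1.99, 0.34 and 0.85 in FVB, 0.49, 0.51 and 0.41 in B6).

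At day 53 more members passed as higher in FVB than at day 28, and 2 fell. Of 36 members 25 passed as higher, against 25.9% of all genes, and 2 as lower, against 27.8%, with a median of 0.85. Nx and sham did not overlap for 20 higher members, against 22.2% of all genes. All 25 had been higher at day 2, and the 10 that were higher at day 2 only were Bst2, Cmpk2, Dhx58, Ifit3, Mx2, Oas2, Oasl1, Rsad2, Stat2 and Usp18. Gbp2 read 10.82, 10.95, 11.20 and 10.22 in Nx mice 4, 7, 8 and 10 and 8.22, 8.55, 8.67 and 8.36 in sham mice 1, 3, 5 and 6, a rise of 2.34 (SE 0.37). Parp14 rose by 2.19, Oasl2 by 1.98, Ifi27l2a by 1.65, Trim30a by 1.64, Rtp4 by 1.52 and Ifih1 by 1.46. Oas2 by contrast read 3.19, 3.19, 3.85 and 3.19 and Oasl1 2.65 in all 4 Nx mice. Irf7 read 2.60, 2.57, 3.05 and 2.21, so 3 of 4 mice lay above their sham, and mouse 8 was the highest of its group for 24 of 36 members and mouse 10 the lowest for 28.

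Rsad2 and Cmpk2 turned downward. Rsad2 read 8.86, 8.51, 8.02 and 8.05 in FVB Nx mice of day 53 and 9.19, 9.14, 9.28 and 9.30 in sham mice, a fall of 0.87 (SE 0.14, limma adjusted p = 1.31e-06). At day 2 it had read 9.81, 10.31, 9.99 and 9.95 against 9.22, 9.51, 9.59 and 9.04. Its other 2 probe sets gave differences of -1.25 and -0.91 at day 53 and 0.40 and 0.68 at day 2, the same signs. Cmpk2 fell by 0.69 at day 53. From day 28 to day 53 the Nx effect in FVB rose for 6 members, against 13.7% of all genes, namely Gbp3, Ifit2, Parp14, Ifih1, Parp9 and Parp12, and fell for 2, Rsad2 and Cmpk2, against 12.6%. The first count is near the share of all genes and the second under it, so they are no result about the members. The count of 6 became 3 without Nx mouse 8 of day 53.

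**Figure D5:**
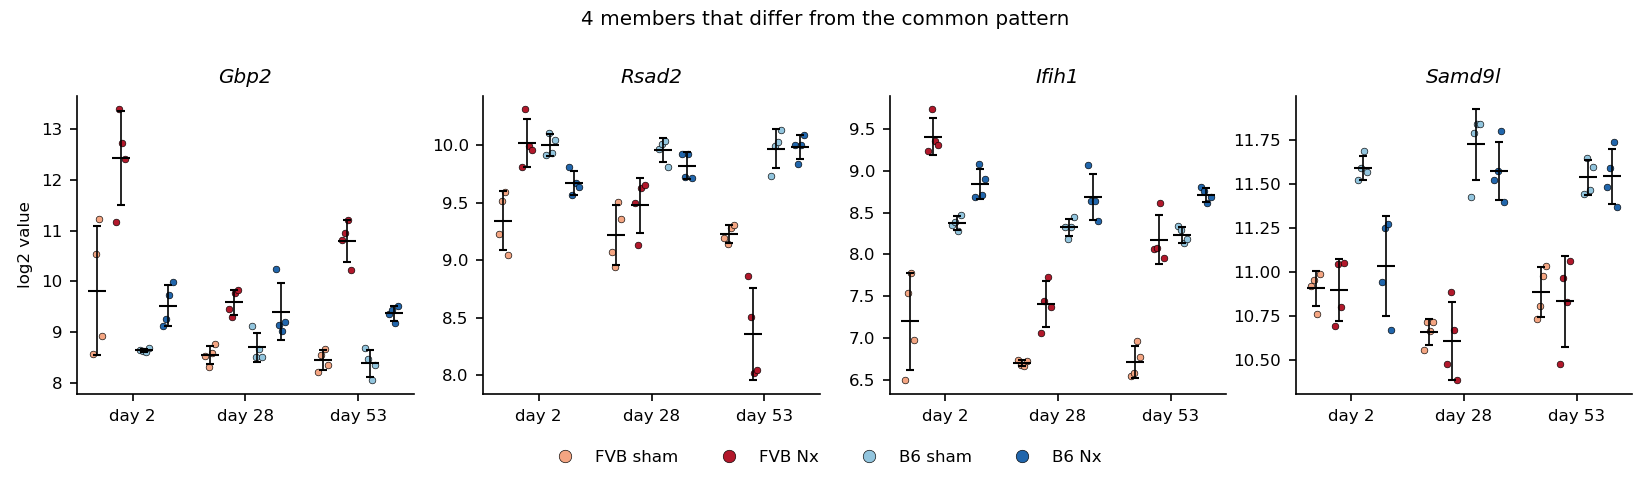
Log2 values of 4 members outside the common pattern, picked after their values were seen. Each point is 1 animal and bars are the group mean and 1 SD (n = 4). Gbp2 shows 2 high FVB sham animals at day 2 (10.55 and 11.22), Rsad2 falls below sham in FVB at day 53, Ifih1 is lower in FVB sham than B6 sham, and Samd9l has overlapping FVB groups on day 2.

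In B6 kidneys the later days gave small counts that moved with the setting. At day 28, 10 of 36 passed as higher, against 9.85% of all genes, and none as lower, against 9.15%, with 1 at an unadjusted p under 0.05. At day 53, 11 passed as higher, against 8.04%, and Gbp3 as lower (fall of 0.87), against 6.69%. All 10 of day 28 were among the 11 of day 53: Ddx58, Dtx3l, Ifi27l2a, Ifi35, Ifit1, Lgals3bp, Oasl2, Parp14, Rtp4 and Trim30a. Parp9 was the further one. Lgals3bp, a secreted scavenger receptor family protein, rose by 1.31 (SE 0.21) at day 28 and 1.14 at day 53, and Ifi27l2a by 1.93 and 2.19 after a day 2 difference of -0.20 (SE 0.54). The Nx effect passed as lower from day 2 to 28 for 0 members, against 4.02% of all genes (2 at an unadjusted p under 0.05), and as higher from day 28 to 53 for 0, against 0% (0 unadjusted). The 10 became 3 without Nx mouse 3 of day 28, and the 11 became 6 without Nx mouse 1 of day 53. The counts of day 28 and day 53 were 17 and 4 without the arrays with pancreatic transcripts, 5 and 15 when only the arrays compared were fitted, 11 and 17 with array weights and 9 and 7 with the mean of probe sets.

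At the later days fewer members differed between the strains. At day 28 no member passed as rising more in FVB, against 0.0608% of all genes, and none had an unadjusted p under 0.05 in limma. At day 53, 6 members rose more in FVB, against 14.2% of all genes, and 1 less, Rsad2 at -0.88 (SE 0.20), against 14.9%. A count near the share of all genes is no result about the members. The 6 were Gbp3 (1.63), Gbp2 (1.37), Parp14 (1.23), Herc6 (1.02), Ifih1 (0.98) and Parp12 (0.54), and they became 3 without FVB Nx mouse 8 and 3 without B6 sham mouse 1. Usp18 differed by -0.26, Mx1 by 0.15 and Oas2 by -0.03 at day 53, none past the threshold. The 6 members Dtx3l, Lgals3bp, Oasl2, Parp14, Rtp4 and Trim30a passed as higher in all 6 surgery comparisons, against 3.98% of all genes, and none of them does so without the arrays with pancreatic transcripts, where FVB day 28 holds 0 members.

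The other genes of the pathway gave a mixed picture, and their counts at day 2 stand against 24.8% higher and 30.0% lower of all genes in FVB, 20.2% and 24.5% in B6 and 2.27% with a larger effect in FVB. Transcripts of the interferons themselves were not seen: Ifnb1, Ifna2, Ifna4 and Ifng were above the filter value on none of the 48 arrays and Ifna1 on 3. Of 8 tested ligand, receptor and receptor kinase genes, 4 were higher in FVB Nx at day 2 (Ifngr1 by 1.28, Ifngr2 by 1.03, Tyk2 by 0.63 and Ifnar2 by 0.23). Of 17 sensors, adaptors and factors that lead to interferon production, 14 were higher and 1, Ticam1, lower. Cgas, the sensor of cytosolic DNA, read 4.11, 4.87, 4.20 and 3.68 against 2.46, 2.46, 2.46 and 2.48 in sham, and its effect was 1.52 larger than in B6. Tlr7, an endosomal RNA receptor, rose by 2.77, Irf8 by 1.83 and Samhd1 by 1.72. The median over the 17 was 0.74 in FVB and 0.49 in B6.

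Of 38 further interferon-induced genes that are no members, 26 were higher and 2 lower in FVB at day 2, with a median of 1.42, against 12 higher and 5 lower in B6, with a median of 0.24. Rnf213 rose by 2.01, the necroptosis effector Mlkl by 3.03, Ly6e by 2.29 and Phf11d by 2.34. The strain difference passed for 15 of the 38. Of 14 tested genes known chiefly for induction by interferon gamma, 12 were higher in FVB. Among them were Cxcl9 (2.66), Ifi47 (2.41), Psmb10 (1.64) and Tapbp (0.69). The median over the 14 was 1.14 in FVB and 0.61 in B6. The strain difference passed for none of the 14, yet its median was 0.85, near the 0.87 of the 38 genes above. A missed threshold thus does not show that the strains were alike in these genes. The FVB sham values of the gamma-type genes were wide, for instance 8.77, 11.99, 13.30 and 9.15 for Iigp1. Of 11 inhibitors of interferon signalling 5 were higher and 1 lower, led by Socs3 (3.67) with Ptpn6 (0.99), Nlrc5 (2.14) and Rnf125 (0.80), and the strain difference passed for none.

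Markers of infiltrating cells moved in the same comparisons. All 13 tested macrophage and monocyte markers were higher in FVB Nx at day 2, with a median of 3.39, and 12 of 13 in B6, with a median of 2.72, and the strain difference passed for none. Fcgr1 rose by 4.74, C1qb by 3.95, Cd68 by 5.86 and C1qa by 3.37 in FVB. Their mean was 8.82 to 9.85 in the FVB Nx animals and 7.94 to 9.30 in the B6 Nx animals, against 5.53 to 6.48 in both sham groups. At day 53 all 13 were again higher in FVB, with a median difference of 3.86, above that of day 2. The interferon members had a median difference of 0.85 at day 53 after 1.99 at day 2. The level of the macrophage markers was not higher at day 53: their FVB mean was 9.43 in Nx and 5.90 in sham at day 2, and 8.87 and 5.25 at day 53. B6 Nx mouse 3 of day 28, the highest of its group for macrophage markers, was also the highest for 29 of 36 members.

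Of 5 markers of plasmacytoid dendritic cells, known as a main source of interferon alpha, 3 were tested. In FVB at day 2, 2 of these passed as higher and 1 did not, against 24.8% of all genes. Ccr9 read 6.51, 5.49, 4.84 and 4.89 in FVB Nx mice of day 2, against 2.22, 2.22, 2.22 and 2.46 in FVB sham and 2.22, 2.22, 2.34 and 2.25 in B6 Nx, and its effect was 3.11 larger in FVB. Spib was 0.75 higher. Siglech, the defining marker, read 4.07, 2.34, 2.42 and 2.20 and was above the filter value on 3 of 48 arrays, too few to be tested. The mean of the 5 markers, which includes the large values of Ccr9, was 2.78 to 3.64 in FVB Nx at day 2 and at most 2.53 in every other group. Neutrophil genes S100a9 and S100a8 rose by 5.54 and 5.05 and Csf3r by 0.52 in FVB, and all 3 passed in B6 as well. Of 5 tested lymphocyte genes none passed in FVB at day 2, and Cd3e and Cd79a lay at or near the lowest value in that group. The mean of the 10 measured lymphocyte genes was nevertheless 3.30 in FVB Nx mouse 2, against 2.30 to 2.35 in the other mice of that group. Of 6 endothelial markers 4 fell and 1 was higher; Tek fell by 0.93 and Eng fell by 0.70. The part of these cells in the members' values was not tested.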

How the data were processed

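Whole-kidney RNA of 48 mice was measured on Affymetrix arrays, 1 per mouse. The authors deposited 1 table of log2 values for 45101 probe sets; the unit was judged from the values (2.20 to 16.2), and 32.1% of them lie at the lowest value. The submitters' processing notes name MAS5 without a role, and the background correction, summarisation and normalisation are not given in the sources used here. Values were used as deposited. Probe sets with 1 symbol in the platform annotation (34958) were kept, each gene was read by the one with the highest mean, and genes entered the test if 4 or more arrays read above 2.28, the 40th percentile over the whole table.

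All 48 arrays entered 1 fit of 12 group means in limma 3.58.1 (R 4.3.3; lmFit, eBayes with an intensity trend; 36 residual degrees of freedom). Two-sided p-values received Benjamini-Hochberg adjustment over 13163 genes per comparison, threshold 0.05, for 14 comparisons. Errors are standard errors (SE) of that fit, or standard deviations (SD) in plots. Where every sham value lay under the filter value, a fold is a bound against it. For arrays, their number, 4 per group, limits the precision. The fit was tested on simulated data. Python 3.11.15 with pandas 2.3.3 and numpy 2.4.6 joined the tables and matplotlib 3.10.9 drew the plots.

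The members, gene lists and markers were chosen with earlier results of these data known. Values of every animal are given for the members with the 10 smallest p in the day 2 strain difference and the 4 further members with the smallest p elsewhere (Samd9l, Oasl2, Zbp1 and Rtp4); Gbp2 and Rsad2 were added after their values were seen. From each other list up to 4 genes with the smallest p in FVB at day 2 are named, plus the ligands, Ticam1, Iigp1 and marker genes of single arrays, which were chosen after their values were seen. Same mouse numbers under Nx and sham were not treated as pairs. Deviations of same-numbered arrays correlated at 0.127, 0.071, -0.002 and 0.003 in FVB at day 2 and 0.378 and -0.251 in FVB at day 28. In B6 they correlated at 0.281 at day 2, 0.168 and -0.057 at day 28 and 0.225 at day 53. The values 0.127, 0.281 and 0.225 were the highest of any Nx and sham pair of their strain and day. The check does not settle whether the numbers mark a shared block. Alternatives were another normalisation, filter, variance setting, weights, probe set rule, sample set and replicate block, and leaving out arrays.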

Additional observations from a re-analysis of the deposited data

Results flagged for a closer look

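Each group of 4 was checked for 1 animal far from the other 3, in 5 list means and in the 10 genes given animal by animal. Of 180 groups 39 were marked; chance marks about 1 in 20, and groups in which 3 animals share a resting value are marked by any small deviation. No explanation was tested.

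Of the list means, the members' mean stood apart in B6 Nx day 2 mouse 11 (7.01, others 6.79 to 6.82). B6 Nx day 28 mouse 3 stood apart in gamma-leaning genes (7.98), macrophage markers (9.31) and plasmacytoid markers (2.37). B6 Nx day 53 mouse 1 stood apart in macrophage markers (7.65). Neutrophil markers stood apart in FVB Nx day 2 mouse 2 (8.66), B6 Nx day 53 mouse 7 (3.05), B6 sham day 28 mouse 1 (3.13) and B6 sham day 53 mouse 1 (2.57). Plasmacytoid markers did so by under 0.05 in FVB sham day 2 mouse 5 (2.25) and FVB sham day 53 mouse 6 (2.20).

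Among single genes, the wider gaps were Ifit1 in B6 Nx day 28 mouse 9 (4.28, others 6.04 to 6.32), Stat2 in FVB sham day 2 mouse 2 (3.87, others 3.23 to 3.24), Oas2 in FVB Nx day 53 mouse 8 (3.85, others 3.19) and Usp18 in B6 sham day 53 mouse 5 (4.45, others 4.88 to 4.96). Dhx58 was also apart in FVB Nx day 53 mouse 8 (3.09, others 2.76).

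The remaining marks were small. Irf7 read 2.46 in B6 Nx day 28 mouse 3, 2.34 in B6 Nx day 53 mouse 4, 2.29 in B6 sham day 2 mouse 5, 2.21 in B6 sham day 53 mouse 1 and 2.20 in FVB sham day 28 mouse 4. Stat2 read 3.02 in B6 Nx day 53 mouse 7 and 3.26 in B6 sham day 28 mouse 1. Oas2 read 3.26 in B6 sham day 2 mouse 5, 3.19 in B6 sham day 53 mouse 1, 3.40 in FVB sham day 2 mouse 1 and 3.19 in FVB sham day 53 mouse 3. Oasl1 read 2.77 in B6 sham day 2 mouse 5, 2.56 in B6 sham day 28 mouse 3, 2.56 in FVB sham day 2 mouse 5 and 2.40 in FVB sham day 53 mouse 3. Mx1 read 2.37 in FVB sham day 2 mouse 2, 2.20 in FVB sham day 28 mouse 4 and 2.37 in FVB sham day 53 mouse 1. Dhx58 read 2.83 in B6 Nx day 53 mouse 2, 2.70 in B6 sham day 53 mouse 3, 2.76 in FVB Nx day 28 mouse 3, 2.70 in FVB sham day 2 mouse 5 and 2.70 in FVB sham day 28 mouse 2.

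The effect of nephrectomy differed between the strains for 24 members at day 2, against 2.27% of all genes with a larger effect in FVB. The 10 with the smallest p had differences of 2.51 (Irf7, a fitted value against levels near or under the filter value), 1.44 (Stat2), 2.23 (Oas2), 1.74 (Oasl1), 2.93 (Mx1), 2.44 (Dhx58), 1.73 (Ifih1), 3.36 (Usp18), 1.85 (Trim30a) and 3.42 (Ifit1) on the log2 scale. At day 53 it differed for 7 members, 6 higher against 14.2% of all genes and 1 lower against 14.9%, so the count is no result about the members: Herc6 (1.02), Ifih1 (0.98), Gbp2 (1.37), Gbp3 (1.63), Rsad2 (-0.88), Parp12 (0.54) and Parp14 (1.23).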

How the results depend on the processing

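In the 6 surgery effects and 3 strain differences no member that passed changed sign under an alternative. The sham comparison and the 4 day-to-day changes were recomputed only as counts of the direction named below. For sham this was the count higher in FVB, so the 14 members lower in FVB sham were not checked. The stricter filter (above 5.18 on 4 or more arrays) gave 28 higher members in FVB at day 2. It took Irf7, Stat2, Oas2, Oasl1, Mx1, Mx2 and Dhx58 out of the test, so 28 is a count out of fewer members. The setting without the arrays with pancreatic transcripts left 1 or 2 Nx arrays a group, assumed to vary like the other groups, and shows no stability. There the counts of higher members became 0 (FVB day 28), 5 (B6 day 2), 17 (B6 day 28) and 4 (B6 day 53). The same setting gave 13 for the strain difference at day 2, 3 for that at day 53, 16 for the lower members of the FVB change from day 2 to 28, 3 for the FVB change from day 28 to 53 and 2 for FVB above B6 in sham. A common array median gave 9 (B6 day 2) and 3 (strain difference, day 53). Array weights gave 17 (B6 day 53), 2 (lower, B6 change from day 2 to 28) and 4 (FVB above B6 in sham). Fitting only the arrays compared gave 17 (strain difference, day 2), 5 (B6 day 28) and 0 (sham). No filter gave 0 (sham), and the mean of probe sets 7 (B6 day 53). Beyond the fewer arrays and, under the stricter filter, the fewer members, the cause of these changes was not tested.

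Leaving out 1 array gave 4 to 10 for FVB day 28 (4 without Nx mouse 7, 6 and 7 without sham mice 1 and 2), 10 to 14 for B6 day 2, 3 to 12 for B6 day 28, 6 to 11 for B6 day 53 and 3 to 7 for the strain difference at day 53. It gave 3 to 9 for the FVB change from day 28 to 53, 0 to 1 for the B6 change from day 2 to 28 (1 without Nx mouse 3 of day 28) and 0 to 1 for sham. With the mouse number as a random replicate block (correlation 0.126) the strain difference at day 2 held 27 members and FVB day 2 held 35; a fixed replicate block for FVB day 2 gave 32. No count moved by over 1.5 times under the replicate block. Signal near the lowest value limits Irf7, Mx2, Dhx58, Oas2, Oasl1, Stat2 and Mx1, whose resting values may understate a fold. Their small spread at rest enters the same fit, so their SE and p may be too small.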
